A study of Mus musculus with 20 samples.

Results

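The 8 genes described here are regulators of the skeletal muscle lineage: Pax7, the 4 myogenic regulatory factors Myf5, Myod1, Myog and Myf6, the fusion proteins Mymk and Mymx, and the cell adhesion gene Cdh15. They were taken by gene name and make up 8 of the 32285 genes in the expression table. RNA was sequenced from whole gastrocnemius muscle of 12-week-old male mice on day 7 after 10 mm of the right sciatic nerve was removed. The right hind limb is the den group, and the left hind limb, in which the nerve was only exposed, is the sham group, so both groups come from operated mice. Opg-/- mice were homozygous for the Tnfrsf11btm1Smoc allele in the whole body, and WT mice were C57BL/6. There were 5 libraries in each of the 4 groups, WT den, WT sham, Opg-/- den and Opg-/- sham. The transection removes the nerve supply of 1 limb while the other limb of the same animal serves as its sham control, and which libraries share a mouse is not given by the labels.

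Skeletal muscle fibres are made and repaired by satellite cells, which lie between the fibre and its basal lamina and carry the transcription factor Pax7. Upon activation these cells express the basic helix-loop-helix factors Myf5 and MyoD, and myogenin and MRF4 (the product of Myf6) follow as the cells differentiate. These factors bind E-boxes, short DNA motifs with the letters CANNTG, as heterodimers with E proteins. Mymk (myomaker) and Mymx (myomixer) drive fusion of the differentiated cells, and M-cadherin, encoded by Cdh15, holds satellite cells and myoblasts to each other and to the fibre. Mature fibres also express some of these factors, Myf6 above all, and myogenin is long known to be induced in fibres that lose their nerve. In a bulk sample, more or fewer cells of a type and more or less RNA per cell cannot be told apart.

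The 8 genes lie on 7 chromosomes of mm10. Myf5 (chr10:107482908-107486134) and Myf6 (chr10:107492853-107494737) are neighbours on the minus strand with 6.72 kb between them. The remaining genes are Pax7 (chr4:139737062-139833528, minus strand), Myod1 (chr7:46376474-46379099, plus strand), Myog (chr1:134289989-134292548, plus strand), Mymk (chr2:27061636-27072179, minus strand), Mymx (chr17:45600971-45602102, minus strand) and Cdh15 (chr8:122847966-122867397, plus strand). Cdh15 alone overlaps another annotated gene, Gm20388, and their exons do not overlap. The library preparation kept no strand, so a read counts by its position only.

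Promoters of 4 of the 8 genes were found in the RefSeq promoter table (GRCm38.p6), which runs from 250 bases before to 50 bases after the start annotated there. The Cdh15 and Pax7 windows lie wholly inside the gene coordinates given above, in which those genes start further upstream. They are shown because they are the promoters at hand, and they include 2 genes that rose in den muscle of both genotypes, Myog and Cdh15, and 2 that did not, Pax7 and Myf5. Capitals mark each match to the E-box CANNTG, a palindromic pattern that reads the same on both strands.
Myog, chr1:134289754-134290053, plus strand: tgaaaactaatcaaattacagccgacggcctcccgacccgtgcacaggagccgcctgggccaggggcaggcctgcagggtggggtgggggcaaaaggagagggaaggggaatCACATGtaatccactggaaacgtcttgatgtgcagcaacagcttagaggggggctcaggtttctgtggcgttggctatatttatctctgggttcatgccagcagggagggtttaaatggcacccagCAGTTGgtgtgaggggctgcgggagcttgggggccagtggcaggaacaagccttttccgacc
Cdh15, chr8:122848124-122848423, plus strand: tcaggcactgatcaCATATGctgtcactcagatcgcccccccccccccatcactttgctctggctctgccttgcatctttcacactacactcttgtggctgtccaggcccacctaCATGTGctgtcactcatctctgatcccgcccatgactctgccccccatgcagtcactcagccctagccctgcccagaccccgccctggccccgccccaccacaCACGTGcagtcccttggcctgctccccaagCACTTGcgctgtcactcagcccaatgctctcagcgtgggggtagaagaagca
Pax7, chr4:139832919-139833218, minus strand: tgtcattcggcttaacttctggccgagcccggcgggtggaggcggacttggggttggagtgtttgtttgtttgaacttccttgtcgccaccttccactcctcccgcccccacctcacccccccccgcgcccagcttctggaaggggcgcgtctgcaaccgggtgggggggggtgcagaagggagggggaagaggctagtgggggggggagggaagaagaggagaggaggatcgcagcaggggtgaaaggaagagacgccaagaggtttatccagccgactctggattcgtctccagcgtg
Myf5, chr10:107486085-107486384, minus strand: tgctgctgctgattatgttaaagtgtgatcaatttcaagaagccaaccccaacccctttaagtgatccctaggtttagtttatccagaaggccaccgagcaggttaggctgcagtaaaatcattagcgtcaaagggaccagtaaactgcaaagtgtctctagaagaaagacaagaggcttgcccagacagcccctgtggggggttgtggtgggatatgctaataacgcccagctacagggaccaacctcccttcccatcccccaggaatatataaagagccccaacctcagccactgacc

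The Myog window held 2 E-boxes, at positions -138 and -12 from the start, and the Cdh15 window held 4, at -236, -135, -32 and -2. The Pax7 and Myf5 windows held 0. Of the 32851 promoters in the table, 72.3% held at least 1 match, so the presence of an E-box is common and these matches are a description of the letters only. The narrower form CAGCTG, found in 16.3% of promoters, occurred in none of the 4 windows.

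Between 15186247 and 20102295 reads per library were assigned to genes, and 16270 to 17385 genes had a value above 0. Libraries 1 and 2 of the WT sham group were nearly identical: their counts differed by less than sampling noise, with a chi-square of 0.325 per degree of freedom, where the other 39 pairs of the same group gave 6.78 to 25.7. They were counted as 1 sample, so that WT sham has n = 4 and its first value below is the mean of that pair. Values are normalized expected counts, that is, estimated read counts scaled by 1 factor per library. Tnfrsf11b, the gene of the knockout, had 1 to 14 reads per library and was not lower in Opg-/- than in WT muscle: its mean was 5.98 in Opg-/- den and 4.41 in WT den, and 8.78 in Opg-/- sham and 2.75 in WT sham. Which part of the gene the allele removes was not used here, so these reads do not check the genotype, and the groups are named by their labels. In den libraries 10.3% to 13.3% of all values fell to the 10 top genes, against 22.7% to 27.0% in sham libraries. The p-values given here and below measure the spread between libraries, part of which may be technical.

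Denervated muscle held more transcript of the myogenic factors Myod1, Myog and Myf6 and of the fusion genes in both genotypes. Pax7 and Myf5 did not pass the test as higher. In WT mice 6 of the 8 genes rose in den against sham muscle and 0 fell (limma, Benjamini-Hochberg adjusted p under 0.05), where 26.9% of all 17948 genes tested rose and 25.7% fell. In Opg-/- mice 6 rose and 1, Pax7, fell, where 28.6% of all genes rose and 26.4% fell. The same 6 genes rose in both genotypes: Myod1, Myog, Myf6, Mymk, Mymx and Cdh15. The 8 log2 fold changes had a median of 1.97 in WT mice, beside -0.002 over all genes, and of 1.80 in Opg-/- mice, beside 0.021. With the further requirement of an absolute log2 fold change above 1, 5 genes rose in each genotype and Cdh15 was the one that dropped out, where 9.59% of all genes in WT mice and 11.4% in Opg-/- mice rose by that rule. The den and sham values did not overlap for 5 of the 8 genes in WT mice, beside 44.3% of all genes tested, and for 5 in Opg-/- mice, beside 40.8%.

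**Figure D1:**
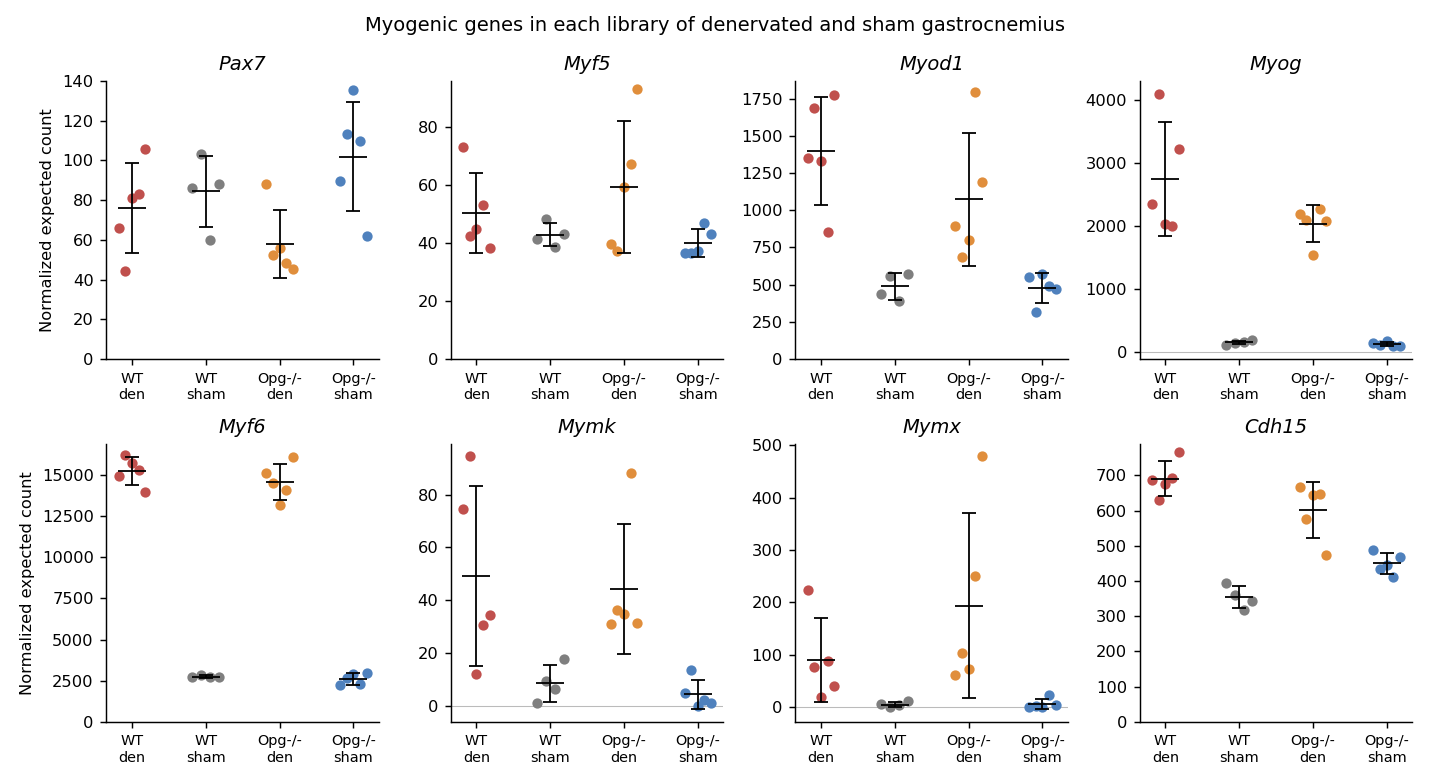
Each point is the normalized expected count of 1 library (WT sham 1 and 2 as their mean), the bars are mean ± SD, and each panel is 1 gene with the WT den, WT sham, Opg-/- den and Opg-/- sham groups from left to right on a linear axis of its own. Myod1, Myog and Myf6 have den points above every sham point in both genotypes, while the Pax7 and Myf5 points of den and sham muscle overlap.

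Myog, which encodes myogenin and commits myoblasts to differentiation, stood at 2347, 4095, 2037, 1997 and 3213 in WT den libraries, against 119, 147, 169 and 186 in WT sham libraries. Its Opg-/- values were 2193, 2099, 1542, 2272 and 2083 in Opg-/- den libraries, against 138, 121, 184, 99.5 and 94.3 in Opg-/- sham libraries. Every den library thus lay above every sham library, by a wide margin, and the WT den libraries were the most spread. The means were 2738 ± 903 in WT den and 155 ± 29.2 in WT sham (SD, n = 5 and 4), and 2038 ± 288 in Opg-/- den and 127 ± 36.3 in Opg-/- sham (SD, n = 5 each), den to sham ratios of 17.6 and 16. The log2 fold change was 4.09 (SE 0.23, limma adjusted p = 1.29e-10) in WT mice and 4.02 (SE 0.22, adjusted p = 6.24e-11) in Opg-/- mice. Among all genes with a known exon length, Myog ranked 339 by its level per kb in WT den muscle and 4656 in WT sham muscle, and 464 in Opg-/- den and 5405 in Opg-/- sham muscle.

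Myf6, which encodes MRF4 and is the myogenic factor of mature fibres, had the highest level per kb of the 8 genes in all 4 groups. It stood at 14969, 16216, 15733, 15310.0 and 14003 in WT den libraries, against 2698, 2856, 2716 and 2715 in WT sham libraries. The 5 values were 15111, 14532, 13159, 14103 and 16101 in Opg-/- den libraries, against 2206, 2678, 2919, 2287 and 2954 in Opg-/- sham libraries. The groups were far apart and tight, with a coefficient of variation of 5.49% in WT den and 2.69% in WT sham. The den to sham ratio of the means was 5.55 in WT mice and 5.60 in Opg-/- mice. The log2 fold change was 2.47 (SE 0.08, limma adjusted p = 2.39e-20) and 2.49 (SE 0.08, adjusted p = 3.85e-21), the lowest adjusted p of the 8 genes in each genotype. Myf6 ranked 52 of 32158 genes by level per kb in WT den muscle and 283 in WT sham muscle, and 50 in Opg-/- den and 334 in Opg-/- sham muscle.

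Myod1, which encodes MyoD, the factor that turns activated satellite cells into myoblasts, rose less. It stood at 1355, 1685, 1329, 851 and 1778 in WT den libraries, against 437, 560.0, 389 and 569 in WT sham libraries. Opg-/- den libraries had 895, 687, 798, 1795 and 1189, against 550.4, 313, 569.9, 491 and 469 in Opg-/- sham libraries. All den libraries lay above all sham libraries of their genotype, and the lowest Opg-/- den library (687) lay just above the highest sham library (569.9). Myod1 had a log2 fold change of 1.49 (SE 0.28, limma adjusted p = 0.000236) in WT mice and 1.11 (SE 0.26, adjusted p = 0.00177) in Opg-/- mice. The means per kb were 752 in WT den and 263 in WT sham muscle, and 576 in Opg-/- den and 257 in Opg-/- sham muscle.

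Myf5, the earliest of the 4 factors in development, did not pass the test in either genotype. It stood at 73.0, 42.5, 44.9, 53.2 and 38.3 in WT den libraries, against 41.3, 48.2, 38.7 and 43.0 in WT sham libraries. The values were 39.7, 37.1, 59.1, 67.0 and 92.8 in Opg-/- den libraries, against 36.4, 36.4, 37.1, 47.0 and 43.0 in Opg-/- sham libraries. The den and sham values overlapped in both genotypes, and 3 Opg-/- den libraries lay above every sham library. For Myf5 the log2 fold change was 0.20 (95% interval -0.28 to 0.67, limma adjusted p = 0.503) in WT mice and 0.48 (0.03 to 0.93, adjusted p = 0.063) in Opg-/- mice. The Opg-/- value passed the threshold in limma without Opg-/- den 1 (0.60, limma adjusted p = 0.0243), without Opg-/- den 2 (0.63, adjusted p = 0.0183), and with all libraries scaled to equal totals (0.92, adjusted p = 0.00128). Across the fits with 1 library left out, the Opg-/- value lay between 0.30 and 0.63. Each library held 29 to 106 reads of Myf5, which limits the precision of these values.

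Because the 4 factors differ in exon length, their levels were compared per kb. Myf6 made up 82.4% ± 4.26 of the summed level per kb of the 4 factors in WT den muscle and 84.9% ± 1.83 in WT sham muscle, and 85.5% ± 2.27 in Opg-/- den and 85.0% ± 3.11 in Opg-/- sham muscle (SD). The share of Myf6 therefore overlapped between the limbs, and the other 3 factors divided the rest in another way. Myog took 12.4% in WT den against 4.05% in WT sham muscle, and 10.1% in Opg-/- den against 3.52% in Opg-/- sham muscle. Myod1 took 5.11% in WT den against 10.2% in WT sham muscle, and 4.24% in Opg-/- den against 10.7% in Opg-/- sham muscle. The ratio of Myog to Myod1 per kb was 2.45 ± 0.49 in WT den and 0.403 ± 0.098 in WT sham, and 2.60 ± 0.85 in Opg-/- den and 0.340 ± 0.10 in Opg-/- sham (SD). In each den library Myog stood above Myod1 per kb (lowest ratio 1.58), and in each sham library it stood below (highest ratio 0.540). Myf5 was the smallest of the 4 throughout, with 0.166% in WT den and 0.801% in WT sham muscle.

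**Figure D2:**
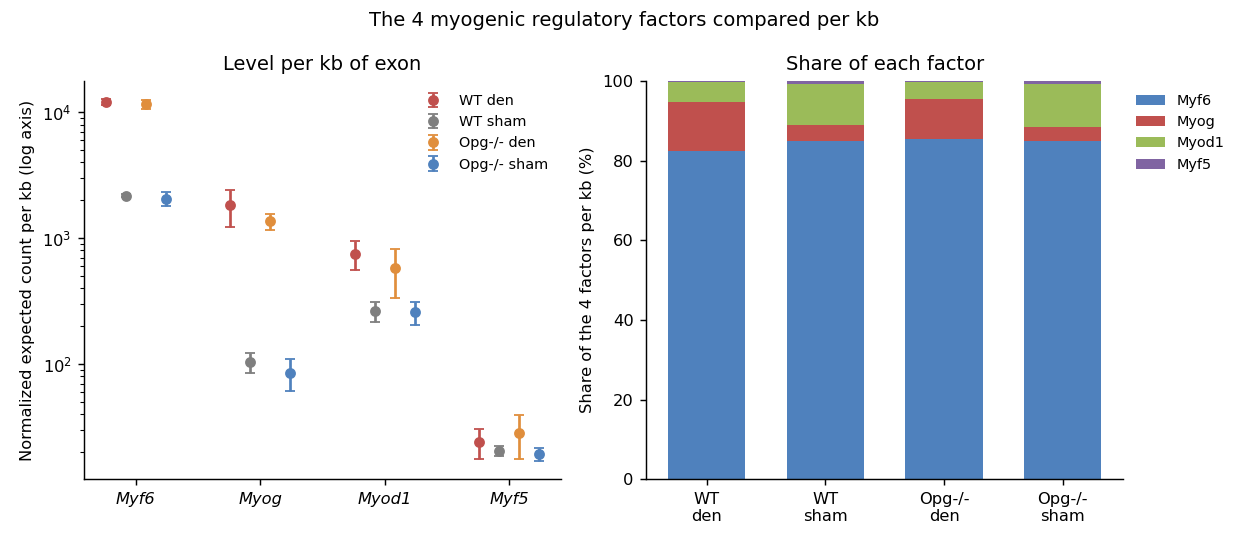
The left panel gives the mean normalized expected count per kb of exon (log axis, bars are SD) of the 4 myogenic regulatory factors in each group, and the right panel gives each factor's mean share of their sum in percent. Myf6 holds 82.4% to 85.5% in every group, while Myog and Myod1 change places between den and sham muscle.

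Mymk encodes myomaker, a membrane protein needed on both partners of a fusion, and its levels were low. It stood at 74.7, 94.5, 12.02, 30.8 and 34.3 in WT den libraries, against 1.09, 9.41, 6.44 and 17.6 in WT sham libraries. Opg-/- den libraries had 31.2, 36.2, 34.8, 88.2 and 31.5, against 4.85, 13.8, 0, 2.24 and 1.19 in Opg-/- sham libraries. WT den 3 (12.02) lay below WT sham 5 (17.6), so the WT ranges overlapped, whereas the Opg-/- ranges did not. The log2 fold change, which on the log2(value + 1) scale understates changes of low genes, was 2.44 (SE 0.74, limma adjusted p = 0.0101) in WT mice and 3.53 (SE 0.70, adjusted p = 0.000306) in Opg-/- mice. With a replicate block, which left out the WT sham pair, the WT value was 1.11 and no longer passed (limma adjusted p = 0.16). The zero in Opg-/- sham 3 allows up to 3 reads, or a value of 3.59, which covers counting error only.

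Mymx encodes myomixer, a small membrane protein that acts with myomaker to complete fusion. It stood at 224, 76.3, 19.2, 88.6 and 39.9 in WT den libraries, against 5.44, 0, 3.22 and 11.03 in WT sham libraries. Its values were 61.5, 104, 72.9, 250.2 and 479 in Opg-/- den libraries, against 0, 2.51, 0, 22.4 and 3.58 in Opg-/- sham libraries. No den library reached down to a sham library of its genotype, but the den libraries spread 11.6-fold in WT and 7.79-fold in Opg-/- mice. Its log2 fold change was 3.96 (SE 1.0, limma adjusted p = 0.00314) in WT mice and 5.44 (SE 0.94, adjusted p = 0.000112) in Opg-/- mice. With voom on the recovered reads the WT value was 4.16 and no longer passed (limma adjusted p = 0.0962). The zeros in WT sham 3, Opg-/- sham 1 and Opg-/- sham 3 allow values of up to 3.53, 3.64 and 3.59.

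Pax7, the transcription factor that marks satellite cells, was not higher in den muscle of either genotype. It stood at 66.1, 44.2, 80.95, 83.0 and 106 in WT den libraries, against 86.0, 103.5, 60.1 and 88.2 in WT sham libraries. In Opg-/- mice it stood at 87.9, 52.6, 55.9, 48.4 and 45.5 in den libraries, against 89.7, 113, 135, 110 and 62.1 in sham libraries. In Opg-/- mice 4 of the 5 den libraries lay below every sham library, and Opg-/- den 1 (87.9) lay above Opg-/- sham 5 (62.1), so the ranges overlapped. The log2 fold change was -0.18 (95% interval -0.67 to 0.31, limma adjusted p = 0.559) in WT mice and -0.80 (-1.26 to -0.34, adjusted p = 0.00361) in Opg-/- mice. With all libraries scaled to equal totals the Opg-/- value was -0.35 and no longer passed (limma adjusted p = 0.196), and the WT value turned to 0.12. That scaling moved the median log2 fold change of all genes to 0.26 in WT and 0.42 in Opg-/- mice, and 7034 genes rose and 2723 fell in WT mice under it, beside 4827 and 4604 with the deposited scaling. In Opg-/- mice 8521 rose and 2296 fell under it, beside 5125 and 4736. The sign of Pax7 in WT mice and its call in Opg-/- mice thus depend on the scaling, while its sign in Opg-/- mice was negative under both.

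Cdh15, which encodes M-cadherin, had the smallest change of the 6 genes that rose. It stood at 688, 630.1, 676, 692 and 768 in WT den libraries, against 393, 360.0, 319 and 344 in WT sham libraries. In Opg-/- mice it stood at 668, 575, 645, 646 and 475 in den libraries, against 489, 435, 447, 410.3 and 469 in sham libraries. The WT limbs did not overlap, and in Opg-/- mice only den 5 (475) fell within the sham range. The ratio of the means was 1.95 in WT mice and 1.34 in Opg-/- mice. The log2 fold change was 0.96 (SE 0.09, limma adjusted p = 4.2e-10) in WT mice and 0.41 (SE 0.09, adjusted p = 0.000176) in Opg-/- mice.

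Opg-/- mice were then set against WT mice within each limb, and the den to sham changes were compared by an interaction term. In limma 0 of the 8 genes passed in den muscle, where 0.0613% of all genes did, 0 in sham muscle, where 0.106% did, and 0 for the interaction, where 0.00557% did. At an unadjusted p under 0.05 there was 1 gene in each of the 3 comparisons, and each time it was Cdh15, beside 6.89% of all genes in den muscle, 12% in sham muscle and 6.96% for the interaction. In sham muscle Cdh15 was 450 ± 30.3 in Opg-/- and 354 ± 31.1 in WT mice (SD, n = 5 and 4), a log2 fold change of 0.35 (95% interval 0.16 to 0.53, limma adjusted p = 0.125). Every Opg-/- sham library lay above every WT sham library, a separation that 3.01% of all genes tested showed in that comparison. In den muscle Cdh15 was 602 ± 79.5 in Opg-/- and 691 ± 49.6 in WT mice (SD, n = 5 each), a log2 fold change of -0.21 (-0.38 to -0.03, limma adjusted p = 0.625), and the ranges overlapped. The interaction was -0.55 (-0.81 to -0.29, limma adjusted p = 0.267), so the smaller den to sham change in Opg-/- mice did not pass over all genes. Leaving out each library in turn gave interactions between -0.59 and -0.47.

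**Figure D3:**
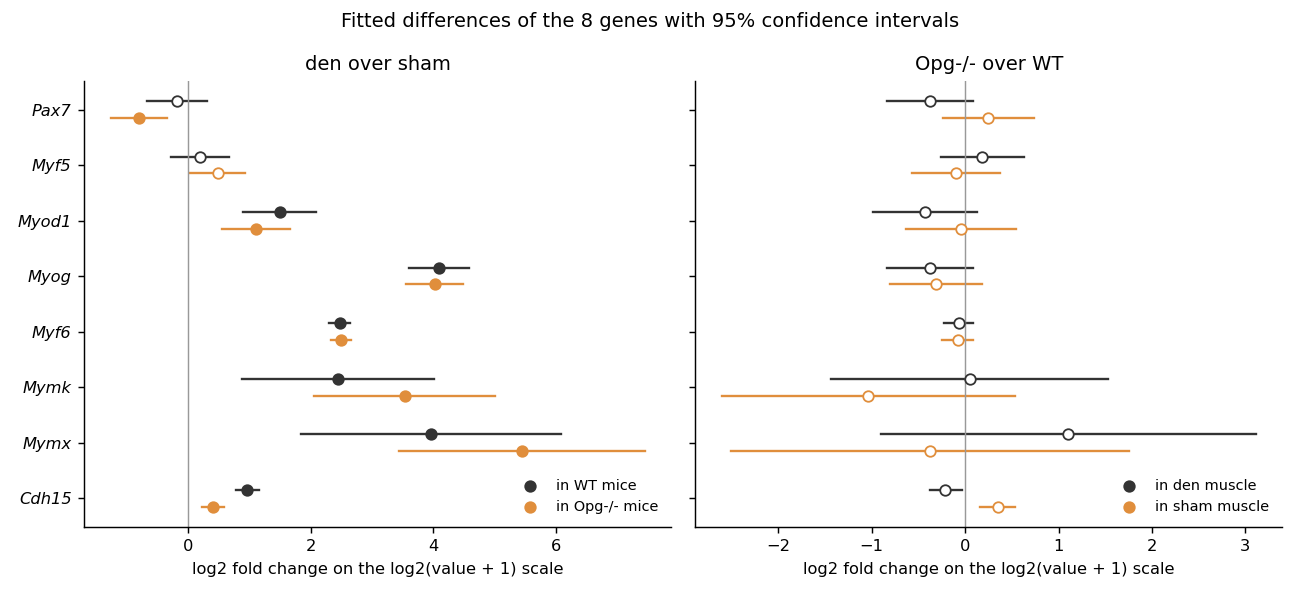
Points are log2 fold changes from limma on the log2(value + 1) scale and lines their 95% confidence intervals, for den over sham in WT and Opg-/- mice on the left and for Opg-/- over WT in den and sham muscle on the right, with a filled point where the adjusted p is under 0.05. On the left 6 genes in WT and 7 in Opg-/- mice are filled, and on the right all points are open and only the Cdh15 intervals leave out 0.

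For the other 7 genes the genotype intervals included 0 in both limbs, and their widths differed greatly. Myf6 was bounded most tightly, with a log2 difference between Opg-/- and WT of -0.06 (95% interval -0.22 to 0.09) in den and -0.08 (-0.25 to 0.08) in sham muscle. For Myog the difference was -0.38 (-0.84 to 0.08) in den and -0.31 (-0.80 to 0.18) in sham muscle, and for Myod1 it was -0.43 (-0.98 to 0.13) and -0.04 (-0.63 to 0.55). These intervals leave room for changes of moderate size in either gene. Mymx could be bounded least, with 1.10 (-0.90 to 3.11) in den and -0.38 (-2.50 to 1.75) in sham muscle. The difference of Pax7 was -0.37 (-0.83 to 0.09) in den and 0.25 (-0.24 to 0.74) in sham muscle, and its interaction of -0.62 (-1.29 to 0.05, limma adjusted p = 0.711) did not pass. The fall of Pax7 in Opg-/- mice is therefore not shown to differ from the value in WT mice.

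Ordered by their means, the 4 groups fell into a den pair and a sham pair for each of the 8 genes. The den pair was the higher one for all but Pax7. For Myod1, Myog, Myf6 and Mymk there was no overlap between the lower den group, Opg-/- den, and the higher sham group, WT sham. For Mymk, however, WT den 3 lay within the WT sham range. Within each pair the genotypes differed by less than the larger SD for these 4 genes. For Pax7 the order was Opg-/- sham, WT sham, WT den and Opg-/- den, and each neighbouring pair overlapped. For Mymx it was Opg-/- den, WT den, Opg-/- sham and WT sham, and for Myf5 Opg-/- den, WT den, WT sham and Opg-/- sham. The neighbouring groups of Mymx and of Myf5 overlapped throughout. For Cdh15 the order was WT den, Opg-/- den, Opg-/- sham and WT sham, and only the last pair was free of overlap.

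Across libraries of the same limb, the members did not move together beyond what 56 tested pairs allow. In the 10 den libraries the strongest relation by Pearson r was between Myf5 and Mymx (r = 0.79, exact permutation within genotype p = 0.0141, adjusted p = 0.729). Spearman rho was 0.709 (exact permutation p = 0.0375), and r without the 2 libraries farthest from the median of Myf5 was 0.473. Within each genotype r had the same sign, at 0.784 in WT and 0.827 in Opg-/- den libraries, which hold 5 libraries each. Myf6 and Cdh15 ran against each other in den libraries (r = -0.753, exact permutation p = 0.026, adjusted p = 0.729; rho = -0.564, p = 0.139; r = -0.74 without the 2 farthest), and Pax7 and Cdh15 together (r = 0.656, exact permutation p = 0.0418, adjusted p = 0.78; rho = 0.721, p = 0.0275; r = 0.434 without the 2 farthest). By Spearman rho, Myod1 and Myog in den libraries stood as high (rho = 0.721, exact permutation p = 0.0255, adjusted p = 0.7). Their Pearson r was 0.594 (exact permutation p = 0.0573), and 0.635 without the 2 libraries farthest from the median of Myod1. In the sham libraries 0 of 28 pairs reached an unadjusted p under 0.05, and 0 of all 56 passed after adjustment.

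The genes with the most similar pattern to each member were found by the root mean square difference of their centred log2 values over 19 libraries, among 13357 genes, as a description. Lmna, which encodes lamins A and C of the nuclear envelope, was closest to Myf6 (0.129 on the log2 scale), with means of 7913 in WT den and 1543 in WT sham muscle. Ttc9 (0.359), Ppp1r27 (0.364) and Rap1gap2 (0.369) were closest to Myog. Ankrd23, a stretch-responsive ankyrin protein gene of muscle, was closest to Cdh15 (0.116), and Pik3r3, a regulatory subunit of PI3-kinase, to Myod1 (0.335). Epn2 was closest to Pax7 (0.299) and Anpep to Myf5 (0.198), both with small changes between the groups. The low fusion genes had no close match, with 0.727 to Rbm47 for Mymk and 1.13 to Gm48427 for Mymx.

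Genes around the 8 members were then described by lists, which were chosen with earlier results of these data known. The counts of each list are to be read beside those of all genes tested. Of all genes, 26.9% rose and 25.7% fell in WT mice, and 28.6% rose and 26.4% fell in Opg-/- mice. Of 26 genes reported as targets of MyoD and myogenin, 20 rose and 4 fell in den against sham muscle in each genotype (limma, adjusted p under 0.05). The median of their log2 fold changes was 1.97 in WT mice and 2.14 in Opg-/- mice. Since the list was chosen with earlier results known, this median describes the list and does not test it. The targets include the acetylcholine receptor subunits of the neuromuscular synapse. Chrna1, the alpha subunit, averaged 10320 ± 2135 in WT den and 309 ± 26.7 in WT sham muscle, and 9703 ± 1318 in Opg-/- den and 388 ± 51.2 in Opg-/- sham muscle (SD). Chrng, the gamma subunit of the fetal receptor, averaged 1440 ± 819 in WT den and 4.28 ± 4.49 in WT sham muscle, and 1155 ± 431 in Opg-/- den and 0.926 ± 1.27 in Opg-/- sham muscle. Chrne, the epsilon subunit that replaces it in the adult receptor, fell by 1.36 on the log2 scale in WT mice and by 1.54 in Opg-/- mice (limma adjusted p = 3.73e-10 and 6.43e-12). Actc1, cardiac alpha-actin, fell too, with 327 ± 98.0 in WT den and 3931 ± 829.8 in WT sham muscle, and 265 ± 74.1 in Opg-/- den and 11212 ± 5271 in Opg-/- sham muscle. Chrnd, the delta subunit, averaged 2621 ± 934 in WT den and 46.3 ± 12.6 in WT sham muscle, and 2640 ± 607 in Opg-/- den and 51.4 ± 8.96 in Opg-/- sham muscle. The list also holds genes used by fibres and not only by myoblasts, such as Ckm, Des, Fbxo32 and Trim63.

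Among 21 other genes of satellite cells, 7 rose and 9 fell in WT mice, where 26.9% of all genes rose and 25.7% fell. In Opg-/- mice 7 rose and 10 fell, where 28.6% of all genes rose and 26.4% fell. The medians were -0.56 and -0.44. Cd82, a tetraspanin of satellite cells, rose by 3.37 on the log2 scale (SE 0.10, limma adjusted p = 9.67e-22) in WT and by 3.48 (SE 0.09, adjusted p = 9.86e-23) in Opg-/- mice, and Ncam1, which denervated fibres also carry, rose by 3.12 and 3.01 (limma adjusted p = 5.22e-19 and 2.23e-19). The list holds 6 receptors and effectors of Notch signalling, which holds satellite cells quiescent, and they did not move as one. Hey1 changed by -1.30 and -1.39, Heyl by -1.13 and -1.29, Notch1 by -0.97 and -0.86 and Notch3 by -1.14 and -1.20 in WT and Opg-/- mice (limma adjusted p from 1.67e-09 to 1.64e-07 in WT and from 3.94e-09 to 2.48e-08 in Opg-/- mice). Notch2 rose by 0.92 and 1.04, Hes1 changed by -0.01 and -0.44 (limma adjusted p = 0.99 and 0.161), and Dll1, a Notch ligand that stands in the list of MyoD and myogenin targets, rose by 3.16 and 3.03. Calcr, the calcitonin receptor of quiescent satellite cells, changed by -0.56 (limma adjusted p = 0.285) in WT mice and changed by -1.3 (adjusted p = 0.00749) in Opg-/- mice. Notch1, Notch3 and Hey1 are also expressed by vessels, whose markers fell as given below.

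Of 20 partners and inhibitors of the myogenic factors, 7 rose and 8 fell in WT mice, where 26.9% of all genes rose and 25.7% fell. In Opg-/- mice 5 rose and 5 fell, near the shares of all genes there, of which 28.6% rose and 26.4% fell. The E protein gene Tcf12, a dimer partner of the 4 factors, rose by 0.56 and 0.74 on the log2 scale (limma adjusted p = 1.03e-06 and 2.26e-09). The E protein genes did not move as one: in WT mice Tcf4 changed by -0.56 and Tcf3 by 0.22 (limma adjusted p = 6.45e-06 and 0.0439). Id2, an inhibitor that binds E proteins, rose by 2.17 and 2.61 (limma adjusted p = 1.79e-10 and 7.99e-13) while Id1 changed by -0.56 and -0.88 (adjusted p = 0.0016 and 3.28e-06). Hes6, a repressor that promotes myogenic differentiation, averaged 495 ± 53.5 in WT den and 123 ± 12.6 in WT sham muscle, and 485 ± 62.2 in Opg-/- den and 122 ± 10.02 in Opg-/- sham muscle. Bhlhe41, which represses MyoD activity, changed by -1.34 and -1.45 (limma adjusted p = 2.04e-08 and 1.81e-09).

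Of 20 factors upstream of the program, 8 rose and 6 fell in WT mice, where 26.9% of all genes rose and 25.7% fell. In Opg-/- mice 9 rose and 6 fell, where 28.6% of all genes rose and 26.4% fell. Runx1, a transcription factor known to be induced in denervated muscle, averaged 3020 ± 151 in WT den and 59.8 ± 19.9 in WT sham muscle, and 2996 ± 446 in Opg-/- den and 51.8 ± 15.1 in Opg-/- sham muscle. Dach2, which represses Myog in innervated fibres, averaged 3.03 ± 2.72 in WT den and 25.5 ± 6.57 in WT sham muscle, and 3.40 ± 2.80 in Opg-/- den and 17.9 ± 5.78 in Opg-/- sham muscle. Its fall passed in both genotypes (limma adjusted p = 8.69e-06 and 0.000113). Mef2a rose by 1.15 and 1.06 on the log2 scale and Mef2c by 0.24 and 0.22, each with a limma adjusted p under 0.05. Tead4, a target of the myogenic factors, rose by 3.03 and 3.0 (limma adjusted p = 5.72e-10 and 2.34e-10).

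**Figure D4:**
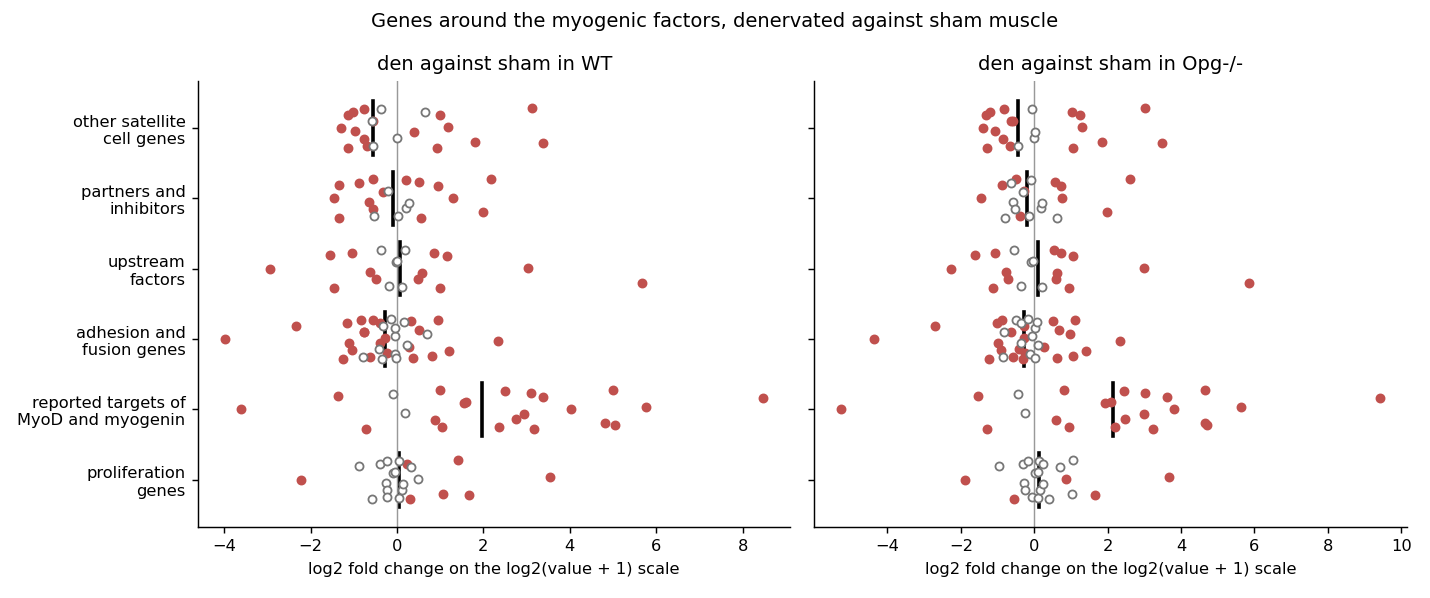
Each point is 1 gene's log2 fold change, den over sham, on the log2(value + 1) scale in WT mice on the left and Opg-/- mice on the right, filled where the limma adjusted p is under 0.05, and the black bars are list medians. Ckm, Des and Mef2c, which stand in more than 1 list, are not drawn, but the medians include them. The reported targets of MyoD and myogenin have medians of 1.97 and 2.14, and the medians of the other 5 lists lie between -0.56 and 0.12. The lists were chosen with earlier results of these data known, so the medians describe the lists and do not test them.

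Of 35 other genes of myoblast adhesion and fusion, 8 rose and 15 fell in WT mice and 9 rose and 14 fell in Opg-/- mice (medians -0.28 and -0.27). Of all genes tested, 26.9% rose and 25.7% fell in WT mice, and 28.6% rose and 26.4% fell in Opg-/- mice. Cdh4, R-cadherin, averaged 16.3 ± 0.956 in WT den and 301 ± 142 in WT sham muscle, and 21.1 ± 4.13 in Opg-/- den and 464 ± 145 in Opg-/- sham muscle, opposite in direction to Cdh15. Mstn, which encodes the growth inhibitor myostatin, changed by -2.34 and -2.70 on the log2 scale (limma adjusted p = 1.62e-09 and 7.66e-11), and Dysf, a membrane repair gene, rose by 1.21 and 1.05 (adjusted p = 3.21e-14 and 1.73e-13). Of 22 proliferation genes 6 rose and 1 fell in WT mice, and 3 rose and 2 fell in Opg-/- mice. The share that rose was near that of all genes in WT mice and below it in Opg-/- mice. The share that fell was below that of all genes in both. Rrm2, a subunit of ribonucleotide reductase, rose by 3.54 and 3.67 (limma adjusted p = 1.46e-13 and 1.46e-14), and Ccne1, cyclin E1, by 1.67 and 1.65, while Aurka, a mitotic kinase gene, changed by -2.22 and -1.89 (adjusted p = 3.42e-06 and 1.34e-05). Mki67, the proliferation marker, averaged 21.2 ± 6.40 in WT den and 27.3 ± 14.9 in WT sham muscle, and 19.2 ± 12.2 in Opg-/- den and 19.4 ± 7.27 in Opg-/- sham muscle. With equal library totals 10 of these genes rose and 1 fell in Opg-/- mice, where 8521 of all 17948 genes rose and 2296 fell. Without Opg-/- den 1, 6 of the proliferation genes rose and 2 fell in Opg-/- mice. In none of these lists and the marker lists below did a gene pass between the genotypes or for the interaction.

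Markers of other cell types were counted in the same way. Of all genes tested, 26.9% rose and 25.7% fell in WT mice, and 28.6% rose and 26.4% fell in Opg-/- mice. The T and B cell markers, and the adipocyte markers in Opg-/- mice, were called less often than all genes. Of 10 macrophage markers, 5 rose in WT and 10 in Opg-/- mice, and their summed value was 2906 to 6511 in WT den and 2251 to 3425 in WT sham libraries, and 2820 to 6774 in Opg-/- den and 1286 to 2400 in Opg-/- sham libraries. The count in WT mice was 2 when both WT sham 1 and 2 were left out, 8 without WT den 4, and 3 without any one of WT den 1, WT den 2, WT den 3 or WT sham 4, and it was 9 with equal library totals. Cd68, a macrophage marker, was among the 3 genes closest in pattern to Mymk (0.84 on the log2 scale). All 8 endothelial markers fell in both genotypes, with sums of 3730.0 to 4458 in WT den and 8551 to 9451 in WT sham libraries, and 3399 to 4324 in Opg-/- den and 8275 to 9869 in Opg-/- sham libraries. Of 8 markers of smooth muscle and pericytes 7 fell and 1 rose in each genotype, of 8 Schwann cell markers 4 fell in each, and of 10 adult fast fibre genes 7 fell and 1 rose in WT and 9 fell in Opg-/- mice. Of 8 markers of fibro-adipogenic progenitors 4 fell and 1 rose in WT and 2 fell and 1 rose in Opg-/- mice, of 6 tendon markers 3 fell and 1 rose in each, and of 6 adipocyte markers 5 fell in WT and 0 in Opg-/- mice. The adipocyte count in WT mice was 2 without WT sham 3 and with equal library totals, which also lowered the count of progenitor markers called in WT mice to 2, and without WT den 2 the progenitor count in Opg-/- mice was 5. Of 7 T and B cell markers tested 1 fell in WT mice, and 1 rose and 1 fell in Opg-/- mice, and 1 more rose in WT mice without WT den 1, WT den 2 or WT sham 5. The part of these cell types in the changes of the 8 genes was not tested.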

How the data were processed

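Total RNA of gastrocnemius muscle was sequenced without strand information, and the authors mapped reads to mm10 with STAR and estimated expression with RSEM (versions not given in the sources used here). The signal values that the authors deposited are RSEM expected counts scaled with 1 factor for each library: expressed in units of 1 read, 87.1% to 88.1% of the values above 0 were whole within 0.001. Columns were assigned by genotype, limb and replicate number. Since the values are normalized, the main fit was not a count test, and voom on recovered reads was run only as an alternative. limma 3.58.1 (R 4.3.3; trend and robust options) was fitted on log2(value + 1) for the 4 groups together, with the nearly identical WT sham pair averaged (19 libraries), for the 17948 genes that reached a value of 1 in 4 or more libraries. A gene was called at a Benjamini-Hochberg adjusted p under 0.05, two-sided. Whether equal replicate numbers mark one mouse is not stated. Same-numbered den and sham libraries had deviations from their group means that correlated at -0.034 to 0.057, and differently numbered ones at -0.059 to 0.042. The same-numbered values were 0.045, 0.019, 0.033, 0.012 and 0.041 in Opg-/- mice and 0.057, -0.034 and 0.053 in WT mice, so most were above 0. The differently numbered ones had both signs. All of these values are small and do not settle whether the numbers mark a mouse. The main fit used no block, and a block was 1 of the alternatives. Levels per kb use GENCODE M21 exon lengths (32158 genes), and promoters come from RefSeq.

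The 8 genes and the gene lists were chosen with earlier results of these data known. From each list the text names up to 4 called genes with the largest change and further genes chosen after their values were seen. Python 3.11.15 (numpy 2.4.6, pandas 2.3.3, matplotlib 3.10.9) served for the rest. The fit was tested on simulated data. Alternatives were equal library totals, other filters and pseudocounts, other treatments of the WT sham pair, separate fits, a replicate block, voom and leaving out each library.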

Additional observations from a re-analysis of the deposited data

Results flagged for a closer look

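In 32 sets of 4 or 5 libraries (8 genes in 4 groups), the highest or lowest library was set against its nearest neighbour by Dixon's criterion, and chance alone marks about 1 in 20 sets. In 5 sets 1 library stood apart. Pax7 was 87.92 in Opg-/- den 1, where the next library had 55.9. Myog was 1541.7 in Opg-/- den 3, below the next at 2083. Myf6 was 2856.4 in WT sham 3, where the next had 2716, a small step in a very tight group. Mymk was 88.22 in Opg-/- den 4, where the next had 36.2. Mymx was 22.36 in Opg-/- sham 4, where the next had 3.58.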

How the results depend on the processing

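The counts of called members stayed within 1.5 times their value under each alternative tried. Leaving out each library in turn gave 6 to 6 called genes in WT mice, 7 to 8 in Opg-/- mice, and 0 for the genotype comparisons and the interaction. Over single genes of the 8 and the other settings, 342 values kept direction and side of the threshold, 3 lost it, 2 passed it and 5 turned sign. With equal library totals, the log2 fold change of Pax7 in WT mice was 0.12 and the interaction of Myog 0.07, and in Opg-/- mice Hand2 was 0.19, Dcn 0.17, Retn 0.15, Cfd 0.10 and Cidec 0.21. With both WT sham 1 and 2 left out, the interaction of Myog was 0.05. With a replicate block, which for den against sham left out the WT sham pair, Pax7 in WT mice was 0.12, the interaction of Myog 0.21, Ptprc in WT mice -0.19 and Lum in WT mice -0.08. Under the block Mymk in WT mice was 1.11 and no longer passed (limma adjusted p = 0.16), Myf5 in Opg-/- mice passed (0.48, adjusted p = 0.0467), and the calls were 5 in WT and 8 in Opg-/- mice. When libraries were left out, signs turned within these ranges: the genotype difference of Myod1 in sham muscle from -0.15 to 0.10, of Mymk in den muscle from -0.36 to 0.36 and of Mymx in sham muscle from -1.09 to 0.12, the interaction of Myog from -0.17 to 0.08 and of Myf6 from -0.04 to 0.07, and in Opg-/- mice Plin1 from -0.16 to 0.49 and Cidec from -0.41 to 0.06. The cause was not tested. Voom with the usual library scaling was not run, since too few values came out whole. Voom on recovered reads with the deposited scaling was chosen after seeing the data, and it carries the same limit. Depth limits Mymk and Mymx most, with 0 to 20 reads in sham libraries.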
